A study of Mus musculus with 2 samples.

Results

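The genes described here encode receptors and bridging proteins with which phagocytes take up dying cells and modified lipoproteins. They were 10 named genes of the 22184 with an own probe set on the array: the bridging ligands Gas6 and Mfge8, the receptors Mertk, Axl, Timd4, Stab1 and Lrp1, and the scavenger receptors Msr1, Marco and Cd36. Each was represented by 1 probe set, named through the platform annotation, so no choice among probe sets was needed.

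RNA came from inflammatory monocytes of the colon lamina propria, sorted on high Ly6C and on CD11b, without CD3 and without Ly6G. The donors were Nlrp6-/- mice, which lack the inflammasome sensor NLRP6, and wild-type (WT) mice, both given as C57BL/6. Mice of both genotypes were injected with 10 mg/kg of the carcinogen azoxymethane (AOM) and received 2% dextran sodium sulfate (DSS), an agent that damages the epithelium, for 5 days starting on day 5. Cells were collected on day 10. The design asks how loss of Nlrp6 alters gene expression in these cells. Their age, the number of mice behind each RNA, the design of the Nlrp6 allele and whether the WT mice were littermates are not stated in the labels. The labels give the loss for the mice and name no cell type to which it was limited.

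Each genotype was measured on 1 Affymetrix Mouse Gene 2.1 ST array, 2 arrays in all, as log2 levels from robust multiarray average (RMA). Without replicates, neither errors nor p-values can be given, and the differences below are those between these 2 arrays. A difference is Nlrp6-/- minus WT on the log2 scale. A gene was called measured where its level exceeded the detection floor on at least 1 array. The floor was the 95th percentile of the 1406 vomeronasal and olfactory receptor probe sets, which monocytes are not known to transcribe, and lay at 3.22 in Nlrp6-/- and 3.26 in WT. Of all genes, 9537 were measured, 8570 of them above both floors. Nlrp6 itself was below the floor on both arrays, at 2.67 in Nlrp6-/- and 2.32 in WT, so it gave no check of the genotype labels. All 13 monocyte markers that could be named were above both floors. Ly6c2, the sorted antigen, was at 9.36 in Nlrp6-/- and 9.06 in WT. Ccr2, the chemokine receptor of inflammatory monocytes, was at 6.30 in Nlrp6-/- and 5.98 in WT. Levels above the floor do not identify the cells, since 15 of 16 stromal and 11 of 18 epithelial markers were also above both floors.

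Dying cells expose phosphatidylserine on their surface. Gas6 and protein S bridge it to the TAM receptor tyrosine kinases (Tyro3, Axl and Mertk), Mfge8 bridges it to alpha-v integrins, and Timd4 and Stab1 bind it directly. Lrp1 is an endocytic receptor that takes up cells marked by calreticulin or complement C1q, and the scavenger receptors Msr1, Marco and Cd36 take up modified lipoproteins, microbes and dying cells. In the gut, such uptake clears epithelial cells and neutrophils that die during colitis. Mertk, Timd4 and Stab1 are typical of mature tissue macrophages, into which Ly6C-high monocytes can develop.

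The windows shown next are the 250 bases before the annotated start of Cd36 and Lrp1, which had the largest differences among members above both floors, of Mertk, which was above the floor in WT only, and of Marco, which was below the floor on both. They were read from RefSeq on mouse build GRCm38.p6 and run 5′ to 3′ on the gene's strand. Capitals mark the GC box, GGGCGG or its reverse complement CCGCCC, the site of Sp1-type factors.
Cd36, chr5:17835897-17836146, minus strand: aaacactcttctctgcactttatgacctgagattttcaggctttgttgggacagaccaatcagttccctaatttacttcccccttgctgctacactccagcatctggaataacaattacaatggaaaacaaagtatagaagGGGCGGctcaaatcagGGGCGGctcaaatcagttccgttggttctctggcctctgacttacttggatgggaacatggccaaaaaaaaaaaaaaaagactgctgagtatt
Mertk, chr2:128698665-128698914, plus strand: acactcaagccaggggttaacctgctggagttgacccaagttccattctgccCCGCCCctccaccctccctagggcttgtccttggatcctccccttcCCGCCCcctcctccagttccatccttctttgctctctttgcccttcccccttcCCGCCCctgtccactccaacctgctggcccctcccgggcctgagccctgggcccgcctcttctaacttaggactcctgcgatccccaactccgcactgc
Lrp1, chr10:127621149-127621398, minus strand: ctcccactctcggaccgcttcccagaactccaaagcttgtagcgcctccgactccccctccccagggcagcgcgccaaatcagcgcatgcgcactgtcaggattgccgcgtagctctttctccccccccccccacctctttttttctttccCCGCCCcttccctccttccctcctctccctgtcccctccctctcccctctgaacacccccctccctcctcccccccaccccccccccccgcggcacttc
Marco, chr1:120505025-120505274, minus strand: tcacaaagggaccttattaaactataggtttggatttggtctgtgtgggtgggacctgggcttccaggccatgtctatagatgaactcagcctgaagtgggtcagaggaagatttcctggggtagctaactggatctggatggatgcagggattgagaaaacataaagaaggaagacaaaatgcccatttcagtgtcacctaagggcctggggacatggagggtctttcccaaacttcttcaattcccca

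Of the 10 genes, 9 had a window in RefSeq's table, Msr1 being the exception. The Mertk window held 3 GC boxes, the Cd36 window 2, the Lrp1 window 1 and the Marco window 0. Gas6 and Mfge8, not shown, held 4 each and Axl 1, and the windows of Timd4 and Stab1 held 0. The GC box was therefore in all 6 windows of measured genes and in none of the 3 windows of genes below both floors. It was in 32.7% of 32851 windows of this length, in 55.9% of 9400 windows of measured genes and in 32.0% of 11215 windows of genes below both floors. The motif was chosen after the sequences were seen, and the match is a description.

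None of the 6 members above both floors differed by 1.5-fold between the genotypes. Of the 10 genes, 7 were measured, 6 of them above both floors, and 3 (Timd4, Stab1 and Marco) were below both floors and gave no fold. Mertk, below the floor in Nlrp6-/- and only 0.04 above it in WT, could not be called 1.5-fold lower from that level. Of the 7, 4 were lower and 3 were higher in Nlrp6-/- by any amount, against 48.4% of all measured genes lower and 51.6% higher. Their differences ran from -0.57 to 0.30, with a median of -0.08, against a median of 0.01 over all measured genes. Mertk entered these values at its measured levels. Without it, the 6 members above both floors were 3 higher and 3 lower, with a median of 0.01. At 1.5-fold, 0 of 7 were called in either direction, where 9.26% of all measured genes were called: 6.21% higher and 3.05% lower. At 1.3-fold, Cd36 and Lrp1 were lower, 2 of 7, against 9.91% of all measured genes, and no member was higher, against 13.8%, with 23.7% apart in either direction. None was 2-fold apart, against 1.94%. In sorted cells measured in bulk, fewer cells that express a gene and less RNA of it per cell cannot be told apart.

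**Figure D1:**
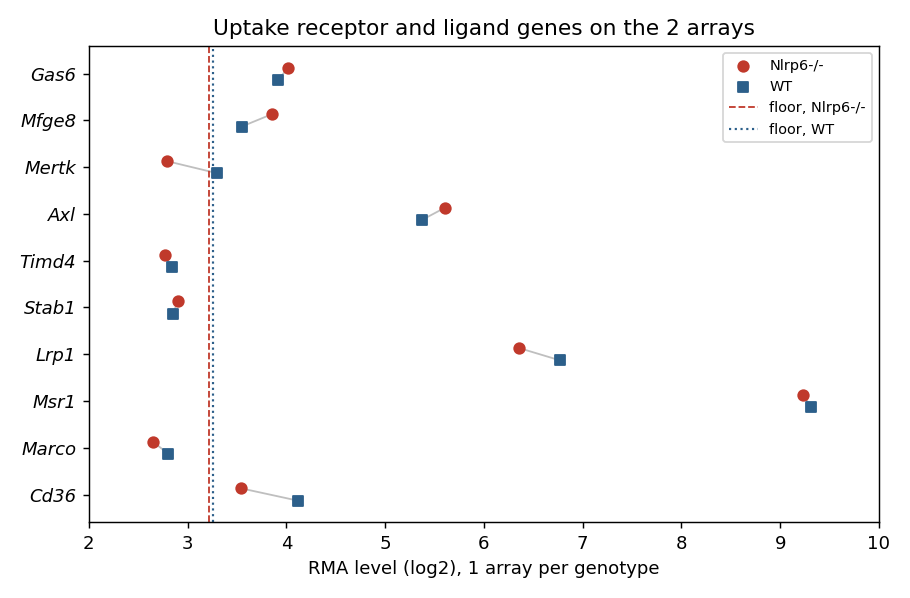
Log2 RMA level of the 10 genes on the Nlrp6-/- array (circles) and the WT array (squares), with the detection floor of each array as a vertical line. Timd4, Stab1 and Marco lie below both floors, and in no gene are the arrays more than 0.57 apart.

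The spread expected without a genotype effect is known here only from technical measures. Differences of the olfactory and vomeronasal receptor probe sets had an SD of 0.19. Where a gene had more than 1 probe set above both floors (422 genes), the differences of these probe sets disagreed by a median of 0.31 and, at the 90th percentile, by 0.79. The differences of all 6 members above both floors were smaller in size than that 90th percentile, and those of Cd36 and Lrp1 exceeded the median. A disagreement between probe sets is another quantity than the distance of 1 difference from 0, so it gives a rough scale only. Against the SD of 0.19, the differences of Cd36, Lrp1, Mfge8 and Axl were larger in size, and those of Gas6 and Msr1 smaller. None of these measures covers variation between mice.

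Gas6, the ligand of all TAM receptors, was at 4.02 in Nlrp6-/- and 3.92 in WT, a difference of 0.10. Of the silent receptor probe sets, 2.42% were at least as bright on the Nlrp6-/- array and 2.63% on the WT array, so its signal was dim. Mfge8, which binds phosphatidylserine and integrins, was at 3.85 in Nlrp6-/- and 3.55 in WT. Its difference of 0.30 was the highest among the members, and 20.6% of measured genes had a higher one. Mfge8 was dimmer than Gas6, with 2.70% of silent receptor probe sets at least as bright in Nlrp6-/- and 3.49% in WT. Both ligands were above both floors, and the arrays were close in each. The other TAM ligand, protein S (Pros1), was at 4.26 in Nlrp6-/- and 4.19 in WT.

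Among the TAM receptors, Axl was clearly above the floor and Mertk was at its edge. Axl, which macrophages increase under interferon and Toll-like receptor signals, was at 5.60 in Nlrp6-/- and 5.37 in WT, a difference of 0.23 that 48.1% of measured genes matched or exceeded in size. Mertk, the main TAM receptor of tissue macrophages, was at 2.79 in Nlrp6-/- and 3.30 in WT. It was below the floor in Nlrp6-/- and 0.04 above it in WT. The levels were 0.51 apart, but against the Nlrp6-/- floor the difference was bounded at only -0.08, so the array gives no firm fold for it. Of the silent receptor probe sets, 9.67% were at least as bright as Mertk in Nlrp6-/- and 4.77% in WT. The remaining TAM receptor, Tyro3, was below both floors, at 2.80 in Nlrp6-/- and 2.85 in WT. Axl was thus the one TAM receptor measured on both arrays.

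The direct phosphatidylserine receptors among the members, Timd4 and Stab1, were below both floors. Timd4, a receptor of resident macrophages, was at 2.77 in Nlrp6-/- and 2.84 in WT. Stab1 (stabilin 1), found on tissue macrophages and sinusoidal endothelium, was at 2.90 in Nlrp6-/- and 2.85 in WT. Both genes give no fold, since both levels lay below the floors. On these arrays 7.82% to 10.1% of the silent receptor probe sets were at least as bright as either gene. Other receptors for phosphatidylserine and dying cells were above both floors. Cd300a was at 5.48 in Nlrp6-/- and 5.26 in WT, Cd300lf at 4.85 in both, and Havcr2 at 4.21 in Nlrp6-/- and 4.62 in WT. Havcr1, Stab2 and Adgrb1 were below both floors.

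Lrp1 was the member with the largest difference among those far above the floor. It was at 6.36 in Nlrp6-/- and 6.77 in WT, a difference of -0.41, or 0.753 of the WT level, and 9.31% of measured genes had a lower difference. Its chaperone Lrpap1, which holds ligands off the receptor during folding, was at 6.75 in Nlrp6-/- and 7.09 in WT. Calr (calreticulin), an Lrp1 partner on dying cells, was at 9.09 in Nlrp6-/- and 9.24 in WT. All 3 were lower in Nlrp6-/-, as were 48.4% of all measured genes, and Lrp1 was the furthest from 0. Lrpap1 and Calr were named after their values were seen. They belong to a list of receptor shedding and cofactor genes with 10 lower and 3 higher. The higher ones were Timp3 at 0.39, Snx17 at 0.24 and Dab2 at 0.14.

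Of the scavenger receptors, Msr1 was well above the floor, Cd36 was dim and Marco was below it. Msr1 (scavenger receptor A) was at 9.23 in Nlrp6-/- and 9.31 in WT. Its difference of -0.08 was smaller in size than that of 79.7% of measured genes. Cd36, a class B receptor for oxidised lipoproteins, fatty acids and dying cells, was at 3.55 in Nlrp6-/- and 4.11 in WT. Its difference of -0.57, or 0.675 of the WT level, was the lowest among the members and just short of the 1.5-fold threshold of 0.58. Of measured genes, 3.81% had a lower difference. Its Nlrp6-/- level was 0.32 above the floor and its WT level 0.85, and 3.41% of silent receptor probe sets in Nlrp6-/- and 2.28% in WT were at least as bright. Marco, a class A receptor of marginal zone and alveolar macrophages, was at 2.65 in Nlrp6-/- and 2.80 in WT, below the floors.

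**Figure D2:**
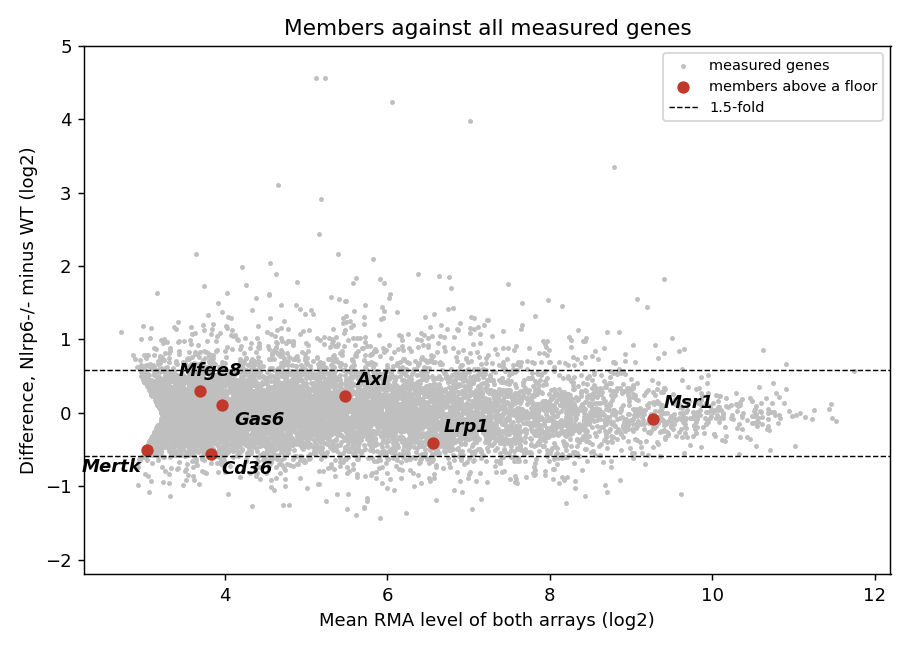
Difference Nlrp6-/- minus WT (log2) against the mean log2 level of both arrays, for the 9537 measured genes (grey) and the 7 measured members (red), with dashed lines at 1.5-fold. All 7 members lie inside the dashed lines, Cd36 closest to the lower one at -0.57.

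The surrounding pathway was described through 7 gene lists, which share some genes with each other and with the 10 members. Outside the members, 91 pathway genes were measured. Of these, 5 were higher and 5 lower in Nlrp6-/- by 1.5-fold or more, against 6.21% and 3.05% of all measured genes. Their median difference was -0.06, with 57 lower and 34 higher by any amount, against 48.4% and 51.6% of all measured genes.

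Among 11 measured bridging ligands and opsonins the median difference was 0.08, and 1 gene was 1.5-fold higher. This was Ptx3, the long pentraxin that coats microbes and dying cells, at 4.15 in Nlrp6-/- and 3.45 in WT, both of which were below a stricter floor (the 99th percentile of the receptor probe sets). Thbs1, which links dying cells to Cd36 and alpha-v integrin, was at 10.42 in Nlrp6-/- and 10.55 in WT. Of the C1q chains, C1qa was at 4.28 in Nlrp6-/- and 4.51 in WT, C1qb was at 6.63 in Nlrp6-/- and 6.41 in WT, and C1qc was below both floors. The ligand list held no gene that was 1.5-fold lower.

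Of all measured genes 48.4% were lower by any amount. Among 14 measured receptors for phosphatidylserine and dying cells, 10 were lower and 4 higher by any amount, with a median of -0.08. The 1 gene past 1.5-fold was Itgb5, the beta-5 chain that pairs with alpha-v as a receptor for Mfge8. It was at 6.09 in Nlrp6-/- and 5.41 in WT, a difference of 0.68. Its partner Itgav lay on the other side, at 7.96 in Nlrp6-/- and 8.41 in WT, and Itgb3, the other beta chain for Mfge8, was at 3.41 in Nlrp6-/- and 3.52 in WT. The chains of the Mfge8 receptor thus did not share a direction. Of 12 measured scavenger receptors, 9 were lower and 3 higher by any amount, with a median of -0.10 and none at 1.5-fold. In that list the largest differences outside the members were those of the lipoprotein receptor Lrp8, at 3.67 in Nlrp6-/- and 4.08 in WT, and of Scarb2, a lysosomal relative of Cd36, at 6.93 in Nlrp6-/- and 6.67 in WT.

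The engulfment machinery, which reshapes actin around the dying cell and matures the phagosome, had 20 measured genes, 14 lower and 6 higher, with a median of -0.16. Of all measured genes 48.4% were lower. Dock1, above the floor in Nlrp6-/- only, counted among the 6 higher although its bound was 0. The 1 gene of this list past 1.5-fold was Myo9b, an unconventional myosin, at 6.60 in Nlrp6-/- and 7.21 in WT. Rac1, the small GTPase of the uptake cup, was at 8.99 in Nlrp6-/- and 9.17 in WT, and its activator subunit Elmo1 was at 7.82 in Nlrp6-/- and 7.64 in WT. Among 13 genes for receptor shedding and cofactors, 10 were lower and 3 higher, with a median of -0.15. Adam17, the protease that sheds the Mertk ectodomain, was at 7.84 in Nlrp6-/- and 8.46 in WT, a difference of -0.62 and the only one past 1.5-fold in that list. Rhbdf2 (iRhom2), which carries Adam17 to the cell surface, was at 7.41 in Nlrp6-/- and 7.96 in WT, a difference of -0.54.

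Genes of the response to engulfed lipid were the most spread of the 7 lists, from -0.88 to 1.19. Of 18 measured, 3 were lower and 3 higher by 1.5-fold or more, against 3.05% and 6.21% of all measured genes, with a median of -0.04. The cholesterol exporter Abcg1, a target of the sterol receptor LXR, was at 5.19 in Nlrp6-/- and 6.07 in WT, a difference of -0.88. Tgm2, a transglutaminase that aids uptake of dying cells, was at 7.66 in Nlrp6-/- and 8.42 in WT. Tgfb1, a cytokine that phagocytes release after such uptake, was at 7.24 in Nlrp6-/- and 7.90 in WT. These 3 were the genes lower by 1.5-fold or more. Of other LXR targets, Abca1 was at 8.51 in Nlrp6-/- and 8.90 in WT, Mylip at 6.52 in Nlrp6-/- and 6.94 in WT, and Apoe at 5.68 in Nlrp6-/- and 5.73 in WT. The whole list had 10 lower and 8 higher by any amount. On its higher side, Lpl and Nr1h3 were above the floor in Nlrp6-/- only, with differences bounded at 0.03 and 0.02.

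The genes of that list higher by 1.5-fold or more were both fatty acid carriers and a nuclear receptor. Fabp4 was at 6.18 in Nlrp6-/- and 4.99 in WT, a difference of 1.19. Fabp5 was at 10.02 in Nlrp6-/- and 9.003 in WT, a difference of 1.02. They were the only pathway genes at least 2-fold apart, where 1.61% of all measured genes were 2-fold higher and 0.325% 2-fold lower. Nr1d1 (Rev-erb alpha), a heme-sensing nuclear receptor of the clock, was at 5.12 in Nlrp6-/- and 4.30 in WT, and with the stricter floor it was no longer called. Fabp4 and Cd36, both known targets of PPAR gamma, thus lay on opposite sides. Pparg itself was above the floor only in Nlrp6-/-, at 3.35 against 2.99 in WT. Against the WT floor its difference was bounded at only 0.09.

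Signals that attract or repel the phagocyte had 14 measured genes, 8 higher and 6 lower, with a median of 0.08 and none at 1.5-fold. The largest differences were those of Cd24a, a ligand of inhibitory Siglecs, at 9.03 in Nlrp6-/- and 8.47 in WT, and of S1pr1, a receptor for sphingosine 1-phosphate, at 3.71 in Nlrp6-/- and 4.19 in WT. Of the main do-not-eat-me pair, Cd47 was at 9.53 in Nlrp6-/- and 9.24 in WT, and its receptor Sirpa was at 8.16 in Nlrp6-/- and 8.51 in WT.

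**Figure D3:**
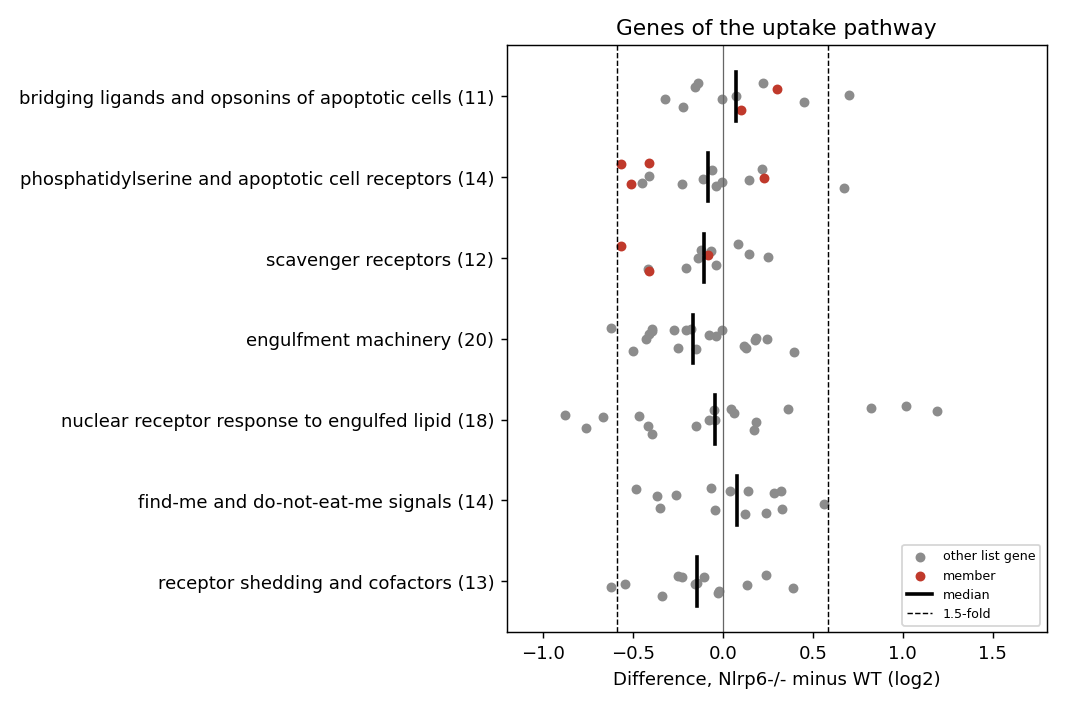
Difference Nlrp6-/- minus WT (log2) of each measured gene in the 7 pathway lists, with the number measured in brackets, members in red, medians as bars and 1.5-fold as dashed lines. The medians run from -0.16 to 0.08, and the widest list, the response to engulfed lipid, reaches from -0.88 to 1.19.

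Markers of several other cell types were higher on the Nlrp6-/- array. A marker above the floor in Nlrp6-/- only was nearly bound to count as higher. Its measured WT level entered the median and the sum. Of 15 measured epithelial markers 14 were higher, with a median of 0.76 (1.42 with the stricter floor) and summed linear levels of 603 in Nlrp6-/- and 304 in WT. Of the 15, 11 were above both floors, and Krt19, Vil1, Zg16 and Phgr1 were above it in Nlrp6-/- only. The defining Epcam was at 5.74 in Nlrp6-/- and 4.71 in WT, and Muc13 and Lgals4 led those above both floors at 1.79 and 1.57. Zg16 was higher by at least 1.47, with a WT level below the floor. Of 16 fibroblast and stromal markers 13 were higher, with a median of 0.43 (1.13 with the stricter floor) and summed linear levels of 1540 in Nlrp6-/- and 788 in WT. Of the 16, 15 were above both floors, and Col6a2 was above it in Nlrp6-/- only. Mgp, Dpt and Col1a2 led at 1.45, 1.27 and 1.19, while the defining Col1a1 was at 5.23 in Nlrp6-/- and 5.19 in WT. Fibroblasts are known to express Axl, Gas6, Mfge8 and Lrp1, and epithelium Mfge8 and Itgb5. The first 3 of these members were higher and Lrp1 was lower in Nlrp6-/-, and the part of such cells in these differences was not tested.

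All 9 measured B and plasma cell markers were higher, with a median of 0.43 and summed linear levels of 1735 in Nlrp6-/- and 1031 in WT. Of the 9, 8 were above both floors, and Tnfrsf17 was above it in Nlrp6-/- only. Among those above both floors the leading genes were Mzb1 at 1.62, Jchain at 0.88 and Cd79a, at 5.36 in Nlrp6-/- and 4.62 in WT. Of 13 neutrophil markers 7 were measured, 5 higher and 2 lower, with sums of 797 in Nlrp6-/- and 618 in WT. Of the 7, 5 were above both floors, and Retnlg and Cxcr2 were above it in Nlrp6-/- only. The neutrophil median of 0.50 depended on the floor, since it was 1.03 with the stricter floor and 0.05 with none. The lower ones were Mmp8 at -0.17 and Csf3r at -0.05, and Ngp, Camp, Ltf, Mpo and Elane were among the 6 below both floors. S100a8 differed by 1.16 and S100a9 by 1.03, Retnlg was higher by at least 1.95 with a WT level below the floor, and the sort-excluded Ly6g was at 3.58 in Nlrp6-/- and 3.32 in WT. Of 9 T and NK cell markers 7 were higher, with a median of 0.20 (0.66 with the stricter floor) and sums of 201 in Nlrp6-/- and 158 in WT. Of the 9, 7 were above both floors, and Cd8a and Gzma were above it in Nlrp6-/- only. Above both floors the largest differences were 0.87 for Gzmb and 0.46 for Cd3d, Gzma was higher by at least 1.35 with a WT level below the floor, and Cd3e was at 3.98 in Nlrp6-/- and 4.21 in WT.

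Endothelial cells, some of which carry Stab1, Cd36 and Fabp4, showed less. Of their 15 markers 6 were measured, 4 higher and 2 lower, with a median of 0.13 (0.36 with the stricter floor) and sums of 193 in Nlrp6-/- and 168 in WT. Cdh5, the defining one, was at 3.49 in Nlrp6-/- and 3.88 in WT, Eng differed by 0.48 and Pecam1 by 0.24, and Vwf, Tie1 and Cldn5 were among the 9 below both floors. Dendritic cell markers, 5 of them measured, had a median of -0.02 and sums of 411 in Nlrp6-/- and 439 in WT. Dpp4 differed by 0.57, Cd209a by -0.43 and Ccr7 by -0.13.

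Markers of resident macrophages, a list that holds Mertk, Timd4, Stab1 and Marco, were divided. Of 19 that could be named, 8 were above both floors, including C1qb, Mrc1, Cx3cr1 and Adgre1, which monocytes can also express as they mature. Another 8 were below both floors, including Cd163, Folr2, Vsig4 and Cd5l beside Timd4, Stab1 and Marco. The 11 measured had a median of 0.08, 7 higher and 4 lower by measured levels, with summed linear levels of 718 in Nlrp6-/- and 768 in WT. Of the 11, Cbr2 and Hpgds were above the floor in Nlrp6-/- only and Mertk in WT only. Among those above both floors Selenop was furthest apart, at 0.56, followed by Adgre1 (F4/80), at 8.72 in Nlrp6-/- and 8.97 in WT. The monocyte markers had a median of 0.07, with sums of 7670 in Nlrp6-/- and 7705 in WT. Their largest differences were 1.06 for F13a1, 0.57 for Ms4a4c and -0.33 for Lyz2.

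**Figure D4:**
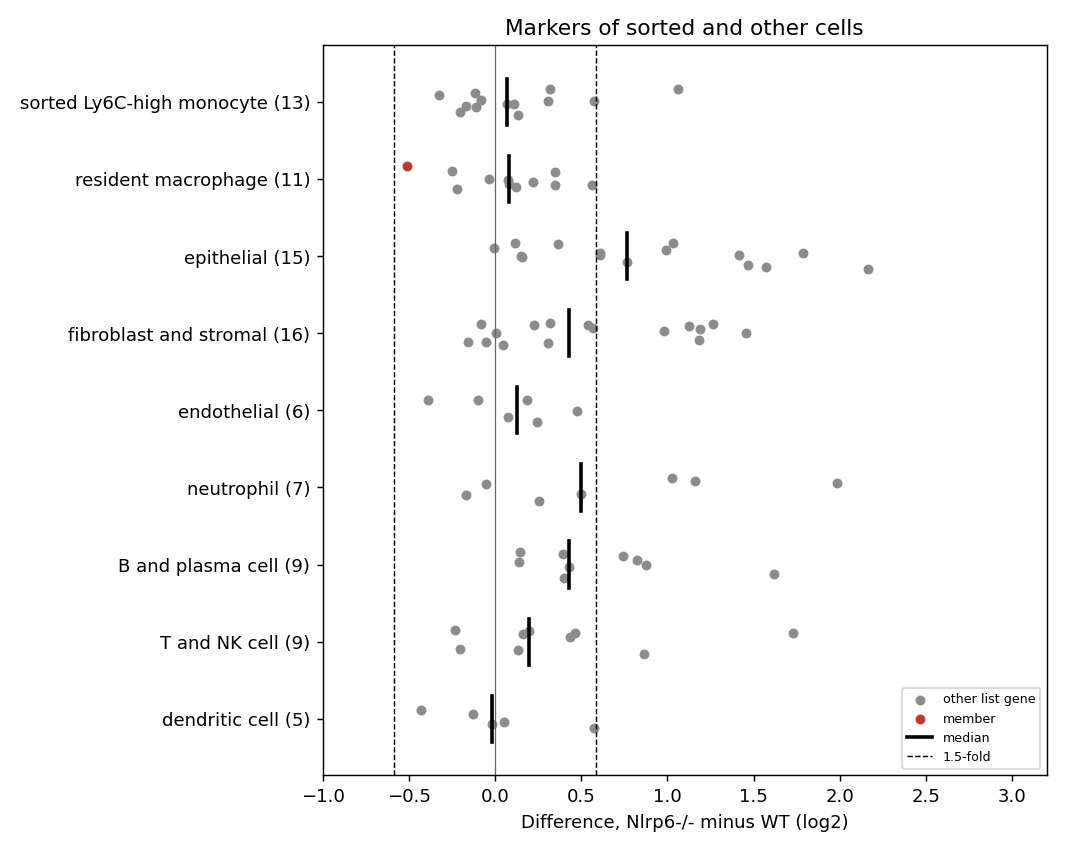
Difference Nlrp6-/- minus WT (log2) of each measured marker of the sorted cells and of other cell types, with the number measured in brackets, medians as bars and 1.5-fold as dashed lines. The epithelial median of 0.76 is the furthest from 0, and the monocyte and resident macrophage medians are 0.07 and 0.08.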

How the data were processed

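RNA of Ly6C-high colon monocytes from 1 Nlrp6-/- and 1 WT sample was measured, grouped by labelled genotype. Per the labels' protocols, 10 ng of RNA was amplified, 3.7 µg of cDNA was hybridised for 20 h at 48 °C, and the authors computed expression by RMA with the oligo package in R 2.15.1. RMA equalises the distributions of the arrays, so a shift of all transcripts cannot be seen. The deposited values are log2 levels, with array medians of 2.84 in Nlrp6-/- and 2.87 in WT. The labels name no genome build, so no gene coordinates are printed except those of RefSeq windows.

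Of 41345 probe sets, 23525 had 1 gene symbol, 1810 several and 16010 none, and only the first were used. For a gene with several, the one with the highest mean of both arrays was taken. A level below its floor was set to that floor before folds were counted. No test was run, since 1 array per genotype leaves no error, and the number of arrays limits the precision. With 2 arrays no likeness between gene patterns can be measured. The members, lists and thresholds were chosen with earlier results of these data known. Named were all members, list genes 1.5-fold apart (otherwise the 2 largest) and, per cell type, up to 3 markers and the defining one. Other genes were named for their known role beside a member, after their values were seen. Computations used Python 3.11.15, pandas 2.3.3 and statsmodels 0.14.6. The calls were tested on simulated data only with changes larger than the 1.5-fold threshold and in brighter genes. That test therefore does not cover changes near the threshold or the dim members.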

Additional observations from a re-analysis of the deposited data

How the results depend on the processing

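No member was called at 1.5-fold under median subtraction, renewed quantile normalization, subtraction of a lowess curve (span 0.3), averaging of a gene's probe sets, either other floor or a 2-fold threshold. At 1.3-fold, 2 were lower. No member changed sign over the 7 settings of scale, probe set and floor: Cd36 ranged from -0.58 to -0.55, Lrp1 from -0.42 to -0.39, Mertk (measured levels) from -0.51 to -0.49 and Axl from 0.21 to 0.25. Each member had 1 probe set, and a floor does not enter its difference. Only median subtraction, quantile normalization and the lowess curve could therefore have moved a sign. Probe set averaging, the stricter floor and the 2-fold threshold could not have added a call. With a floor at the receptors' 99th percentile, 3 members (Axl, Msr1 and Lrp1) were measured instead of 7, and 329 of all genes were 1.5-fold higher and 189 lower instead of 592 and 291, since fewer genes were tested. At 2-fold 154 were higher and 31 lower, and at 1.3-fold 1314 and 945. With the stricter floor the epithelial median was 1.42, the stromal one 1.13, the neutrophil one 1.03, the T and NK one 0.66 (with 0 calls at 1.5-fold instead of 2) and the endothelial one 0.36. The bridging ligand median turned to -0.07, and the 1.5-fold calls of Ptx3 and Nr1d1 ended. Without a floor the neutrophil median was 0.05. Cd24a reached 1.5-fold after the lowess curve was subtracted (0.59), and Fabp4 and Fabp5 were 2-fold higher under all 7 settings. No paired analysis was possible because each genotype had 1 array, and no array could be left out.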
